A study of Homo sapiens with 8 samples.

Results

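The genes described here encode actins and proteins that bind actin filaments, several of them typical of smooth muscle: ACTA2, ACTB, ACTG1, ACTN1, TPM1, TPM2, TPM4, TAGLN, TAGLN2 and CSRP1. Every probe that the bead array names for them was taken, which gave 22 probes of 10 genes out of 47322 probes with 31426 gene symbols. The genes had been picked because actin genes were lower after TRPM7 knockdown in earlier results of these arrays and because ACTA2 moved in opposite directions in the cell lines. Their knockdown values are therefore given as a description without a test. The comparison of the control cells of the lines was not itself used for the choice and was tested. It uses the same control arrays as the knockdown comparisons, so its p-values are not independent of the choice.

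Actin filaments are built from actin monomers, coated by tropomyosins, cross-linked by α-actinin and bundled by transgelin. ACTB and ACTG1 encode the cytoplasmic actins of nearly all cells, whereas ACTA2, TAGLN, TPM2 and CSRP1 are abundant in smooth muscle cells and in contractile mesenchymal cells such as myofibroblasts. Many of these genes are targets of serum response factor (SRF), which binds a promoter element called the CArG box together with myocardin or the myocardin-related factors MKL1 and MKL2, and the MKL proteins are themselves held in the cytoplasm by monomeric actin.

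RNA came from SH-EP2 cells, a non-neuronal, epithelial-like neuroblastoma line, and from SH-SY5Y cells, a neuroblastic line, both derived from SK-N-SH. Cells of each line were stably transduced with a lentiviral pLKO vector carrying an shRNA against TRPM7, a cation channel fused to a kinase, or a scrambled control shRNA, and were selected with puromycin, so control cells carry vector and selection too. There were 2 arrays (Illumina HumanHT-12 v4) per group and 8 in all, with 1 TRPM7 shRNA on the arrays. It is not stated whether the duplicates were separate cultures, so p-values measure the spread between these arrays, which may be technical.

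Values are log2 normalized signals, and a probe counted as detected on an array at a detection p under 0.05. Between 19331 and 20904 probes were detected per array, and duplicate arrays correlated at 0.981 to 0.985. Of the 22 probes, 19 were detected on all 8 arrays. The only TRPM7 probe (ILMN_1667047) was detected on no array, so the knockdown itself cannot be read here. Noradrenergic genes such as DBH and DDC were not detected in SH-EP2 control cells (median of 12 genes 2.94) but were bright in SH-SY5Y control cells (median 11.03), while 12 mesenchymal genes had medians of 11.09 and 6.85, respectively. TH was not detected in SH-SY5Y cells, and the Schwann cell genes SOX10 and S100B were not detected in either line.

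Promoter sequences from RefSeq (GRCh38.p14) were matched by symbol for 8 of the 10 members, with 19 transcription starts. ACTB and TAGLN were not matched. The CArG box lay in the 250 bases before 3 of these starts (ACTG1, ACTN1 and TPM4), and in 1.16% of all 35116 promoters of the table. The 250 bases before 1 of the starts of ACTA2 held no such match but 2 CArG-like boxes, in which a single G or C interrupts the A and T letters. This looser form was searched after the ACTA2 promoter had been read and was found in 5.96% of all promoters. ACTG2, the enteric smooth muscle actin and closest relative of ACTA2, had 2 CArG boxes. These promoters are shown because the CArG box is a known element of muscle actin promoters, with the boxes in capitals and each sequence read 5′ to 3′ towards the start:
ACTA2, chr10:88952774-88953023, minus strand: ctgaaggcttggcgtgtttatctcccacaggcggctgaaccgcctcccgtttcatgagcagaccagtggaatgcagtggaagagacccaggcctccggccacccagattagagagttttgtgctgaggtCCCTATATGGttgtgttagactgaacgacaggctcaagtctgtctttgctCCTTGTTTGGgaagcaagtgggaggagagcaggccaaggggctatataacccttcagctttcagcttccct
ACTG2, chr2:73892758-73893007, plus strand: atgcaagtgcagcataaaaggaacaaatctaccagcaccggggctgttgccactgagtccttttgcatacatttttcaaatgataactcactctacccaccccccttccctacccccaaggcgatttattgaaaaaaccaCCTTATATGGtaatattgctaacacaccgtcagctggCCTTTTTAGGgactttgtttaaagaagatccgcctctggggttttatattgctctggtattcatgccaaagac
ACTG1, chr17:81512800-81513049, minus strand: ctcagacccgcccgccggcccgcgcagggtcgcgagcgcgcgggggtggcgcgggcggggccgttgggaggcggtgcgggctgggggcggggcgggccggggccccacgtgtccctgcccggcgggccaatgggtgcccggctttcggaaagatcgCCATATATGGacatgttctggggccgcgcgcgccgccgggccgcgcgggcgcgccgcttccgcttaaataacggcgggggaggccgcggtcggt
TPM4, chr19:16067288-16067537, plus strand: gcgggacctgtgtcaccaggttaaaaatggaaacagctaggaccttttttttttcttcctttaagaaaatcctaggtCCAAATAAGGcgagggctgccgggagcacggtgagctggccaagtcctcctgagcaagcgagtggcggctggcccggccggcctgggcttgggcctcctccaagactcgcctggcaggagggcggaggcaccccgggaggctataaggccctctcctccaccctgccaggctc

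The boxes of ACTA2 began 121 and 71 bases before the start, and those of ACTG2 110 and 73 bases before it. The box of ACTG1 began 94 bases before its start and that of TPM4 173 bases before it. Of the further motifs searched on both strands, CATTCC (MCAT) lay before 1 start each of ACTA2, ACTN1 and CSRP1 and before 11.9% of all starts, and TATAAA before 1 start each of ACTN1 and CSRP1 and before 10.7% of all. Such letters are a description of the sequence and not evidence that a factor binds there.

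The first comparison asked how the control cells of the lines differ. All 22 member probes were higher in SH-EP2 than in SH-SY5Y control cells and all 22 passed the adjusted threshold, against 26.2% of all probes in either direction and 12.2% that were higher. Among probes detected on all 8 arrays, 60.1% passed in either direction, and all 19 member probes of that kind did. The log2 difference ran from 0.28 to 10.41 with a median of 2.20, while the median over all probes was -0.02. In RNA from a whole culture, fewer cells of a type and less RNA per cell cannot be told apart.

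The smooth muscle genes differed most. TAGLN, which encodes the actin-bundling protein transgelin, gave 13.94 and 14.00 on the SH-EP2 control arrays and 4.91 and 5.04 on the SH-SY5Y control arrays (ILMN_1778668), a 512-fold difference (log2 9.00, SE 0.12, limma adjusted p = 8.51e-21). Its SH-SY5Y signal lay near background, and the log2 difference was 6.80 without background correction. A second TAGLN probe (ILMN_2400935) was at 11.98 and 12.01 in SH-EP2 and was detected on no SH-SY5Y array, which makes it at least 458-fold higher in SH-EP2 (adjusted p = 3.98e-19) after the background correction used, while its fitted log2 difference was 5.39 without one. ACTA2, the actin of vascular smooth muscle, was 35.8-fold higher in SH-EP2 (log2 5.16, SE 0.09, adjusted p = 1.04e-19). TPM2, the β-tropomyosin, was 22.3-fold and 41.3-fold higher by its brighter probes (ILMN_1789196 and ILMN_1757604, adjusted p = 1.90e-18 and 9.59e-19).

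Most of the other members differed less. CSRP1, a LIM-domain protein that binds α-actinin and zyxin, was 9.30-fold higher in SH-EP2 (adjusted p = 4.29e-15). ACTN1, the non-muscle α-actinin that cross-links actin filaments, was 4.62-fold higher (adjusted p = 8.24e-14), and TAGLN2, a widely expressed relative of transgelin, 4.55-fold and 6.38-fold. TPM1 was 6.50-fold and 5.77-fold higher by its bright probes, and TPM4, the short tropomyosin of non-muscle cells, 1.68-fold and 2.28-fold.

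The cytoplasmic actins stood, with TPM4, at the end of this order. The ACTB probes were 1.73-fold to 1.79-fold higher in SH-EP2, and the ACTG1 probes 1.22-fold (ILMN_2053178, adjusted p = 0.00392) and 1.96-fold (ILMN_1704961, adjusted p = 1.00e-07). The brighter ACTG1 probe ranked between 11 and 168 from the top of all probes on the 8 arrays, and the ACTB probes between 34 and 444. Whether such bright beads understate a difference was not tested. This ACTG1 difference was the only one of the 22 that lost its call in an alternative. It was 0.25 on the log2 scale without SH-EP2 control replicate 1, 0.20 without SH-SY5Y control replicate 2, and 0.28 without an intensity trend in the variance model.

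**Figure D1:**
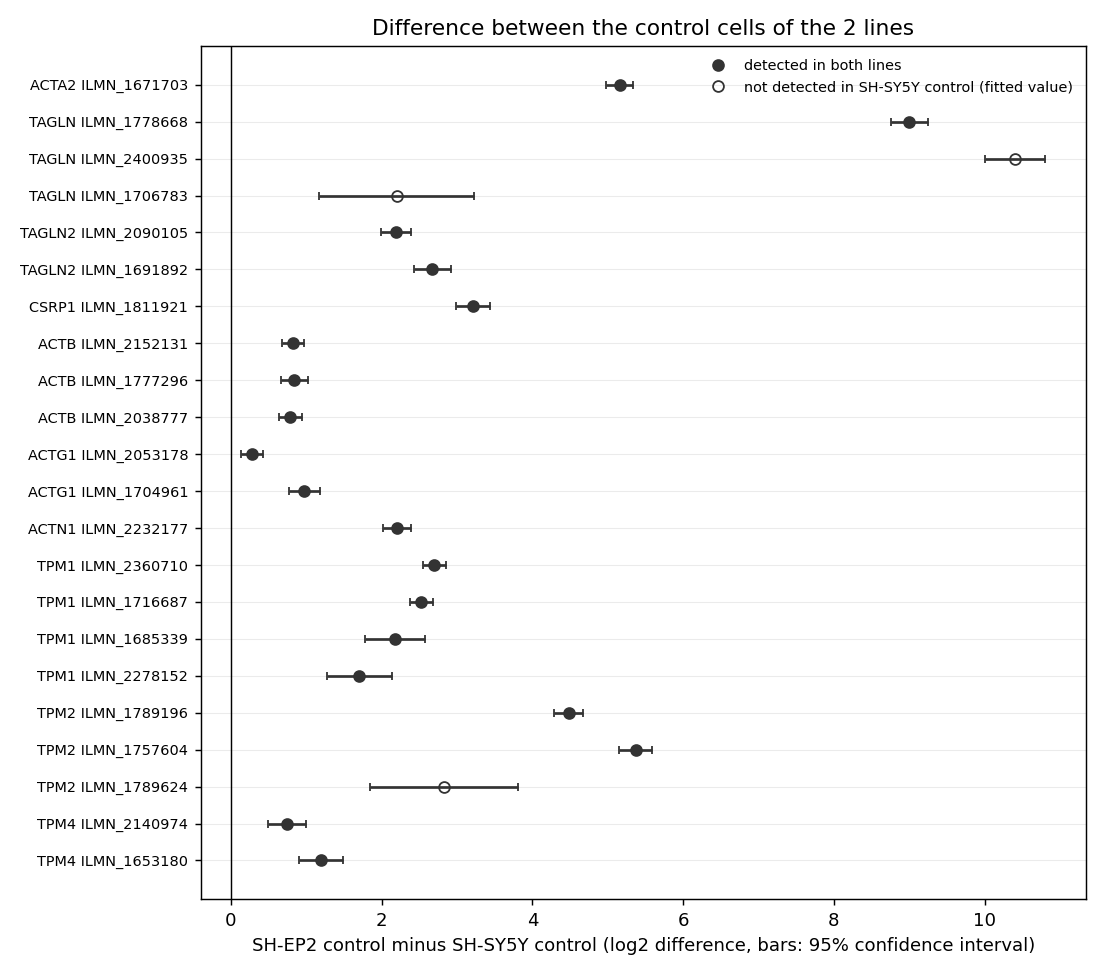
Log2 difference between SH-EP2 and SH-SY5Y control cells for each member probe (x axis, bars for the 95% confidence interval, 2 arrays per group). Every probe lies right of 0, the bright TAGLN and TPM2 probes and ACTA2 farthest and the ACTB, ACTG1 and TPM4 probes nearest; open points were not detected in SH-SY5Y control cells, so their place depends on the background correction.

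The second comparison asked what TRPM7 shRNA did to these genes in each line. In SH-EP2 cells 20 of the 22 probes were lower with TRPM7 shRNA and 2 were higher. In SH-SY5Y cells 13 were lower and 9 higher. The arrays of the groups did not overlap for 21 of the 22 probes in SH-EP2, where 42.9% of all probes did not, and for 13 in SH-SY5Y, where 39.1% did not. Because the genes were picked on these contrasts, the counts describe them and support nothing further.

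The medians over the 22 probes were -0.41 in SH-EP2 and -0.08 in SH-SY5Y, against 0.006 and 0.005 over all probes. The direction of the 22 probes in SH-EP2 was the same under every alternative run. In SH-SY5Y 7 probes changed sign under at least 1 alternative, namely 2 of ACTB, 1 of ACTG1, 3 of TPM2 and the dimmest of TAGLN, all with log2 differences between -0.11 and 0.24. With median scaling in place of quantile normalization, 11 of the 22 were lower in SH-SY5Y and the calls over all probes turned from 382 higher and 617 lower to 553 higher and 284 lower.

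**Figure D2:**
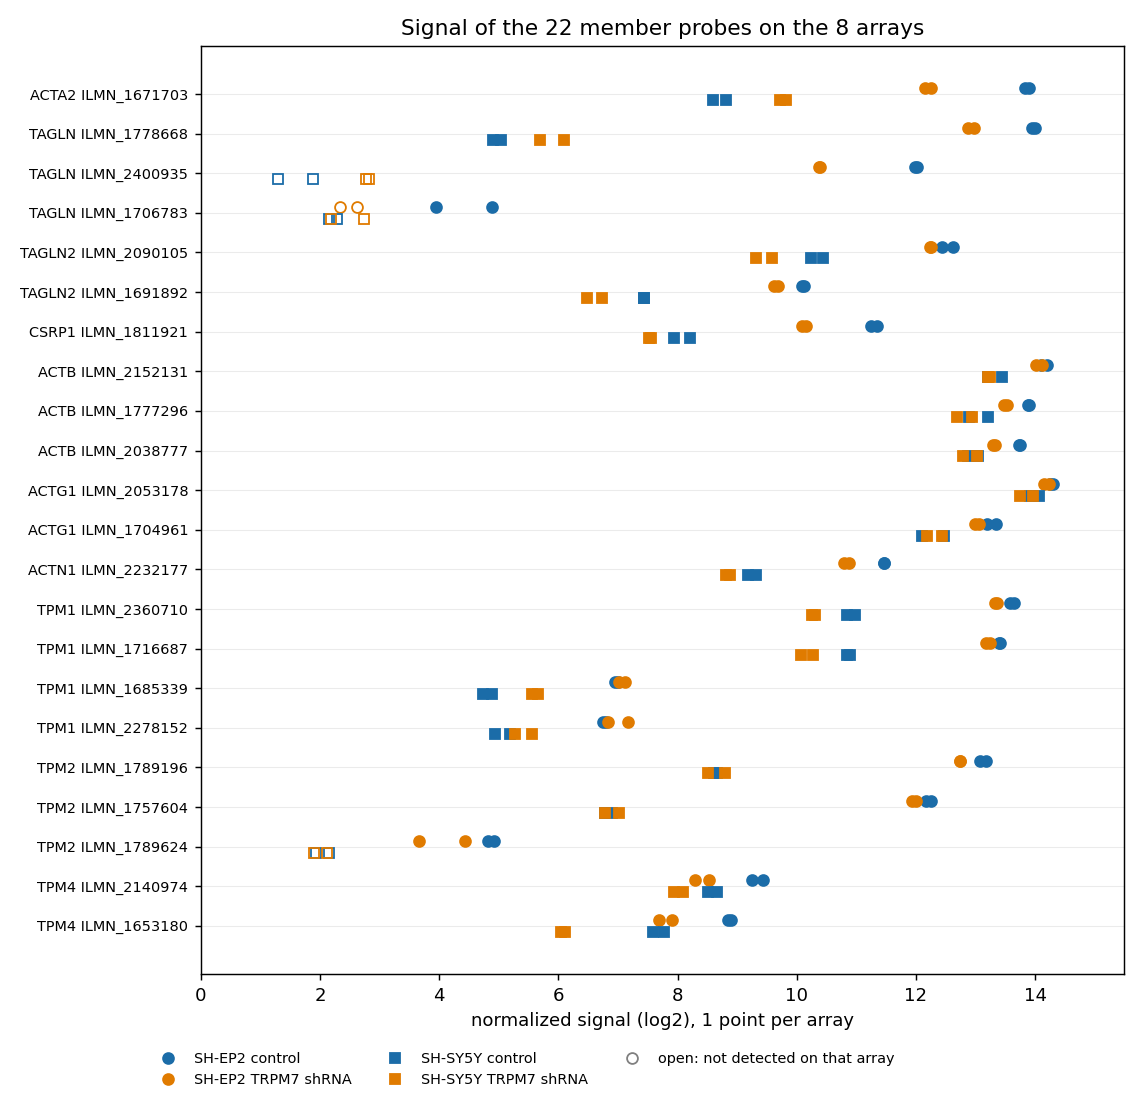
Normalized signal (x axis, log2) of the 22 member probes on each of the 8 arrays, circles for SH-EP2, squares for SH-SY5Y, blue for control and orange for TRPM7 shRNA; open symbols mark arrays on which the probe was not detected. For ACTA2 and the upper TAGLN probe the orange points lie between the blue points of the lines, lower than control in SH-EP2 and higher than control in SH-SY5Y.

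ACTA2 (ILMN_1671703) moved in opposite directions. On the SH-EP2 arrays it was at 13.90 and 13.83 in control cells and at 12.26 and 12.15 in TRPM7 shRNA cells. On the SH-SY5Y arrays it was at 8.59 and 8.81 in control cells and at 9.72 and 9.82 in TRPM7 shRNA cells. The groups did not overlap, and in the order of levels SH-EP2 control was followed by SH-EP2 with TRPM7 shRNA, SH-SY5Y with TRPM7 shRNA and SH-SY5Y control.

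The ACTA2 signal with TRPM7 shRNA was thus 31.6% of control in SH-EP2 (log2 -1.66, SE 0.09) and 209% of control in SH-SY5Y (log2 1.07, SE 0.09). The distance between the lines was 5.16 on the log2 scale in control cells. Over the alternatives the SH-EP2 difference ranged from -1.71 to -1.60 and the SH-SY5Y difference from 0.89 to 1.19. Both signs were thus kept under each of them. Such an arrangement, with groups apart in both lines and opposite directions, was shown by 7.23% of all probes and by 3 of the 22 member probes.

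TAGLN was the other gene of this kind. Its brightest probe (ILMN_1778668) went from 13.94 and 14.00 in SH-EP2 control cells to 12.97 and 12.88 with TRPM7 shRNA. In SH-SY5Y cells it went from 4.91 and 5.04 to 5.69 and 6.10. The log2 differences were -1.05 and 0.92 (SE 0.12 each), or 48.4% and 190% of control. The SH-SY5Y value rests on signals near background, and it ranged from 0.26 without background correction to 1.12 with SH-SY5Y TRPM7 shRNA replicate 1 left out.

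Both further TAGLN probes were lower with TRPM7 shRNA in SH-EP2. The second (ILMN_2400935) was at 11.98 and 12.01 in control cells and at 10.37 and 10.40 with TRPM7 shRNA (log2 -1.61, SE 0.19). It was detected on no SH-SY5Y array, so no fold is given there. The dimmest (ILMN_1706783) was detected in SH-EP2 control cells alone, at 4.89 and 3.94. It was at least 2.37-fold lower with TRPM7 shRNA after the background correction used. Its fitted log2 difference there was -1.94, and it ranged from -2.44 to -0.27 over the alternatives.

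CSRP1 and TAGLN2 were lower in both lines. CSRP1 (ILMN_1811921) was at 11.34 and 11.25 in SH-EP2 control cells against 10.09 and 10.16 with TRPM7 shRNA, and at 7.94 and 8.21 in SH-SY5Y control cells against 7.56 and 7.52. These are log2 differences of -1.17 and -0.54 (SE 0.11 each), with the groups apart in both lines. TAGLN2 (ILMN_2090105) was at 12.62 and 12.43 against 12.26 and 12.23 in SH-EP2 and at 10.24 and 10.43 against 9.59 and 9.32 in SH-SY5Y, or -0.28 and -0.88 (SE 0.10 each). Its second probe (ILMN_1691892) gave -0.46 and -0.83 (SE 0.12 each). Both TAGLN2 probes were thus lower in both lines. Without background correction the second gave -0.41 in SH-EP2 and -0.44 in SH-SY5Y.

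ACTN1 (ILMN_2232177) was lower in both lines. It was at 11.46 on both SH-EP2 control arrays and at 10.88 and 10.79 with TRPM7 shRNA, a log2 difference of -0.62 (SE 0.09). In SH-SY5Y cells it was at 9.32 and 9.17 in control cells and at 8.82 and 8.87 with TRPM7 shRNA, a difference of -0.40 (SE 0.09).

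The cytoplasmic actins moved little. In SH-EP2 the ACTB probes ILMN_1777296 and ILMN_2038777 were at 13.88 and 13.90, and at 13.73 and 13.75, in control cells, and at 13.47 and 13.53, and at 13.29 and 13.33, with TRPM7 shRNA, which is 76.3% and 74.2% of control. The brightest ACTB probe (ILMN_2152131) was at 14.10 and 14.20 against 14.11 and 14.02, with overlapping groups and a log2 difference of -0.09 (SE 0.07). ACTG1 gave -0.09 (ILMN_2053178, SE 0.07) and -0.24 (ILMN_1704961, SE 0.10) in SH-EP2.

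In SH-SY5Y the groups of all 5 ACTB and ACTG1 probes overlapped, with log2 differences between -0.23 and 0.02. Actin genes have near-identical coding sequences and many processed pseudogenes, and the letters of the probes were not used here, so which transcripts each probe binds is uncertain.

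Of the tropomyosins, which stabilize actin filaments and set the access of myosin and other proteins, TPM4 was lower with TRPM7 shRNA by both probes in both lines. Its probe ILMN_2140974 was at 9.43 and 9.24 in SH-EP2 control cells and at 8.30 and 8.52 with TRPM7 shRNA (log2 -0.93, SE 0.12), and at 8.52 and 8.67 against 8.09 and 7.94 in SH-SY5Y (log2 -0.58, SE 0.12). The probe ILMN_1653180 was at 8.89 and 8.84 against 7.90 and 7.70 in SH-EP2 (log2 -1.07, SE 0.14) and at 7.59 and 7.77 against 6.05 and 6.11 in SH-SY5Y (log2 -1.60, SE 0.14). The last of these is 33.0% of control, and it ranged from -1.69 to -0.81 on the log2 scale over the alternatives.

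The probes of TPM1 disagreed. In SH-SY5Y its bright probes were lower with TRPM7 shRNA, at 10.84 and 10.98 against 10.26 and 10.31 (ILMN_2360710, log2 -0.62, SE 0.07) and at 10.90 and 10.85 against 10.07 and 10.27 (ILMN_1716687, log2 -0.70, SE 0.08). A dim probe was higher, at 4.73 and 4.88 against 5.55 and 5.66 (ILMN_1685339, log2 0.80, SE 0.19), and the other dim probe gave 0.35 (ILMN_2278152, SE 0.21). In SH-EP2 the bright probes gave -0.26 and -0.19 and the dim ones 0.08 and 0.23. TPM1 makes many transcripts by alternative splicing, and which of them each probe reads was not examined. The value of 0.80 fell to 0.20 without background correction.

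The bright TPM2 probes were slightly lower in SH-EP2. There they were at 13.17 and 13.07 against 12.74 and 12.73 (ILMN_1789196, log2 -0.38, SE 0.09) and at 12.25 and 12.17 against 12.00 and 11.94 (ILMN_1757604, log2 -0.24, SE 0.10). In SH-SY5Y they gave 0.01 and 0.06 with overlapping groups. The dimmest TPM2 probe (ILMN_1789624) was at 4.92 and 4.82 in SH-EP2 control cells and at 4.43 and 3.66 with TRPM7 shRNA (log2 -0.82, SE 0.47, and -0.13 without background correction), and no SH-SY5Y array detected it. TPM2, like TAGLN and ACTA2, was far higher in SH-EP2 than in SH-SY5Y control cells, but its bright probes gave overlapping groups in SH-SY5Y, where the others were higher with TRPM7 shRNA.

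**Figure D3:**
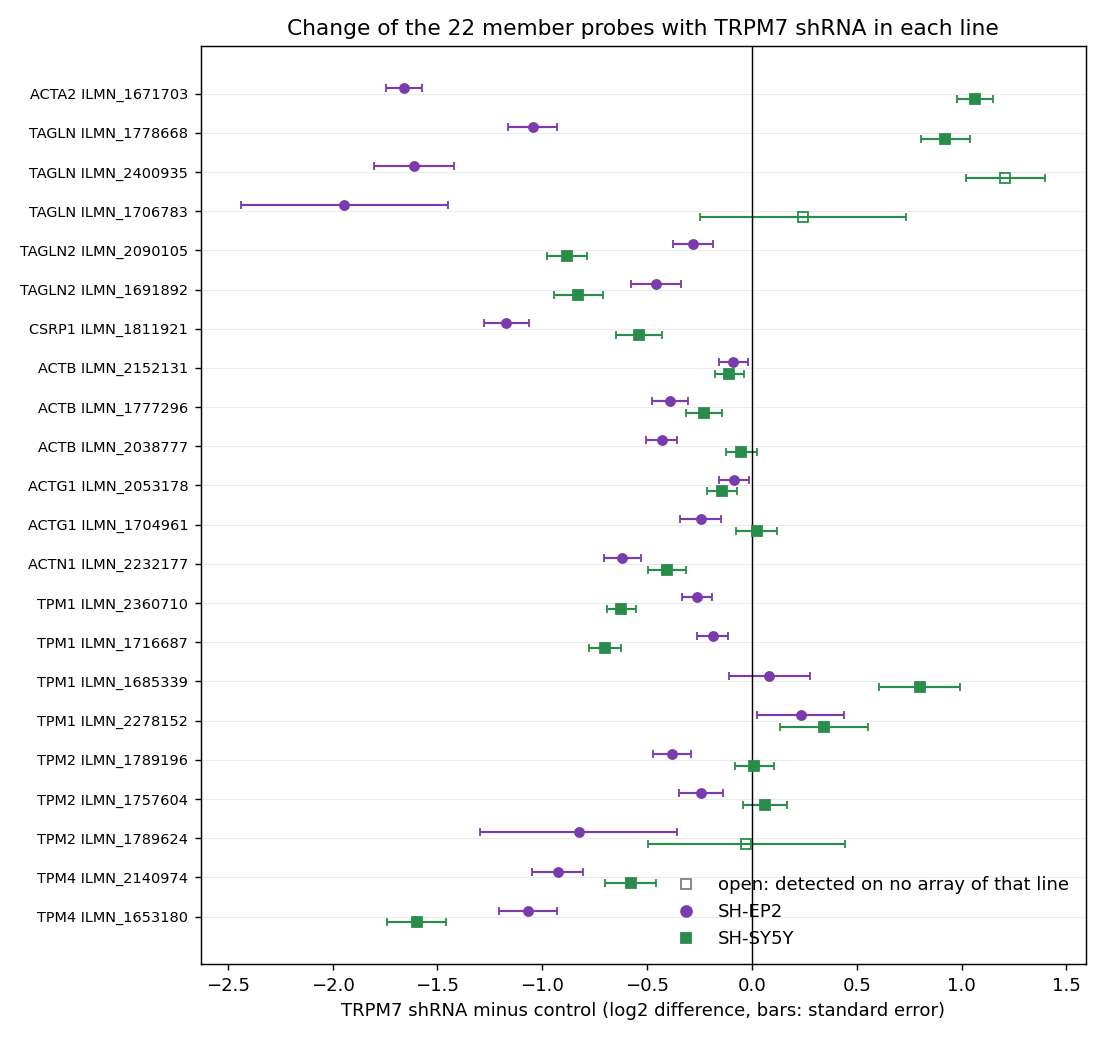
Log2 difference between TRPM7 shRNA and control cells for each member probe (x axis, bars for the standard error, 2 arrays per group), circles for SH-EP2 and squares for SH-SY5Y, open where no array of that line detected the probe. ACTA2 and TAGLN lie on opposite sides of 0 in the lines, whereas CSRP1, TAGLN2, ACTN1, TPM4 and the bright TPM1 probes lie left of 0 in both.

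Across both lines, 8 of the 22 member probes were lower with TRPM7 shRNA without overlap in each line, where 5.31% of all probes were. They belonged to ACTN1, CSRP1, TAGLN2, TPM1 and TPM4. Mesenchymal genes, summarized as the mean over 12 genes, were at 10.17 and 10.08 on the SH-EP2 control arrays and at 10.02 and 10.08 with TRPM7 shRNA, and at 6.61 and 6.54 against 6.34 and 6.49 in SH-SY5Y. Of their 20 probes, 1 was called higher and 5 lower in SH-EP2 (30%), and 4 were called lower in SH-SY5Y (20%). Among all probes 3.02% and 2.11% were called in these lines, and among those detected on all arrays 7.79% and 5.63%. The mean over 12 noradrenergic genes went from 10.35 and 10.40 to 10.14 and 10.00 in SH-SY5Y. Of the 16 noradrenergic probes, 4 were called lower in SH-SY5Y (25%), and in SH-EP2 1 was called higher and 2 lower (18.8%). The part of these cell states in the member values was not tested.

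The next comparison took lists of relatives, regulators and partners of the members, with 103 genes and 174 probes. Of these probes, 145 were detected on at least 1 array. In SH-EP2, 5 were called higher and 21 lower with TRPM7 shRNA, or 14.9% against 3.02% of all probes (1.48% higher, 1.54% lower) and 7.79% of probes detected on all arrays. In SH-SY5Y, 2 were called higher and 9 lower, or 6.32% against 2.11% of all probes (0.807% higher, 1.3% lower) and 5.63% of probes detected on all arrays. The lists were written with earlier results of these data known, so these shares and the p-values below are not an independent check. The SH-EP2 count was 16 without control replicate 1 or TRPM7 shRNA replicate 1, and 15 without control replicate 2. It was 44 with SH-EP2 fitted alone and 4 without an intensity trend in the variance model, where 1 was left in SH-SY5Y. The difference between the lines passed for 7 higher and 9 lower related probes, or 9.2%, where 1.4% of all probes passed, 0.792% as higher and 0.606% as lower.

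Among the relatives of the members, ACTG2 was the gene that changed most in SH-EP2. It was at 10.09 and 9.91 in SH-EP2 control cells and at 6.29 and 6.44 with TRPM7 shRNA (ILMN_1795325). This is a 12.4-fold decrease (log2 -3.63, SE 0.30, limma adjusted p = 2.74e-07), called under each alternative. In SH-SY5Y it was at 2.19 and 3.26 against 2.30 and 2.53, and 1 of those 4 arrays detected it. The effects in the lines differed (log2 -3.32, adjusted p = 0.000108), with the SH-SY5Y values at background. ACTG2 thus had the direction of ACTA2 in SH-EP2, and any part of the promoter boxes in this was not tested.

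ACTN4, the second non-muscle α-actinin, was lower in SH-EP2, from 10.74 and 10.71 to 10.17 and 10.20 (log2 -0.54, adjusted p = 0.033). This call was lost when any SH-EP2 array was left out, with the value between -0.56 and -0.53, and also with median scaling. In SH-SY5Y no relative was called by limma, and none had an unadjusted p under 0.05. TPM3 (ILMN_1697567) gave -0.13 in SH-EP2 and -0.03 in SH-SY5Y, and CSRP2 -0.27 and -0.11. TAGLN3, the neuronal transgelin, was detected in SH-SY5Y alone. By control arrays it was at least 148-fold higher there than in SH-EP2 (ILMN_1698179, adjusted p = 3.76e-17) after the background correction used. Its mean signals before that correction were 1400 in SH-SY5Y and 104 in SH-EP2 control cells. With TRPM7 shRNA it gave -0.41 in SH-SY5Y (adjusted p = 0.507). The striated muscle genes ACTA1, ACTC1, ACTN2 and CSRP3 and the actin ACTBL2 were detected on no array, and ACTN3 on 1.

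For the regulators of the CArG box no change was called, which with 2 arrays per group does not show that they were level. SRF was at 10.40 and 10.50 in SH-EP2 control cells against 10.14 and 10.13 (log2 -0.31, adjusted p = 0.123), and at 9.28 and 9.51 against 9.34 and 9.18 in SH-SY5Y (log2 -0.14, adjusted p = 0.685). MKL1 gave 0.01 in SH-EP2 and -0.30 in SH-SY5Y, and MKL2 -0.30 and 0.50. The SH-SY5Y control arrays of MKL2 lay far apart, at 6.33 and 5.13. ELK1, a partner of SRF at growth factor genes, gave 0.01 and -0.02. MYOCD, the myocardin of cardiac and smooth muscle, was detected on no array, and none of the 4 dim ELK4 probes on more than 4 of the 8 arrays. No probe of this list was called in either line by limma, and 1 had an unadjusted p under 0.05, in SH-EP2. Between the control cells, SRF was higher in SH-EP2 by 1.05 (adjusted p = 4.87e-08) and MKL1 by 2.38 (adjusted p = 8.37e-06). The MKL1 signal of SH-SY5Y control cells lay near background, at 3.48 and 3.32 (detection p 0.0195 and 0.0455). Before background correction the mean MKL1 signals were 166 in SH-EP2 and 115 in SH-SY5Y control cells, so the size of this difference is uncertain.

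Further smooth muscle genes were lower in SH-EP2. Of the 41 probes of 20 genes, 12 probes of 9 genes were called in SH-EP2 and each was lower, or 29.3% of the probes. Among all probes 1.54% were called lower, and among those detected on all arrays 7.79% were called in either direction. The log2 differences of the 12 called probes ran from -3.29 to -0.55. FHL1, a LIM-domain protein of muscle, went from 10.45 and 10.50 to 8.71 and 8.63 (log2 -1.80, adjusted p = 1.74e-09). CALD1, the caldesmon that restrains actomyosin, went from 11.04 and 10.79 to 9.38 and 9.36 (ILMN_2324002, log2 -1.54, adjusted p = 1.91e-08). KCNMB1, a subunit of the smooth muscle calcium-activated potassium channel, was at 6.12 on both control arrays and was not detected with TRPM7 shRNA, at least 7.71-fold lower (adjusted p = 0.000171) after the background correction used. Its fitted log2 difference was -3.29, and -0.65 without background correction.

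These 3 genes were called in SH-EP2 under each alternative. In SH-SY5Y FHL1 gave 0.02 and CALD1 -0.32, without a call. The defining genes of differentiated smooth muscle MYH11, DES and CNN1 were detected on no array, and LMOD1 on 1 SH-EP2 control array.

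PDLIM3, which binds α-actinin, was the one smooth muscle gene of the list called in SH-SY5Y, by both of its probes. It went from 7.99 and 8.08 to 6.33 and 6.53 there (ILMN_2230025, log2 -1.61, adjusted p = 5.39e-07) and from 8.61 and 8.52 to 7.63 and 7.78 in SH-EP2 (log2 -0.85, adjusted p = 0.000851). The second probe (ILMN_1695299) gave -1.55 and -0.93. Its SH-EP2 call was lost without either control replicate or without TRPM7 shRNA replicate 1, with values between -0.98 and -0.87.

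Of the 16 probes of 9 further SRF targets, 4 were called in SH-SY5Y, each lower, or 25% of them. Among all probes 1.3% were called lower, and among those detected on all arrays 5.63% were called in either direction. The 4 called probes belonged to EGR1, FHL2 and ZYX, and no probe of the other genes of the list, such as VCL and FOS, was called. By the brightest probe of each gene, 2 genes were called lower and 7 were not. The named genes were thus not all called by their brightest probe. EGR1, an immediate early transcription factor, went from 6.95 and 7.09 to 5.71 and 5.56 (log2 -1.39, adjusted p = 7.00e-07). FHL2, a LIM-domain cofactor of SRF, went from 7.51 and 7.64 to 6.74 and 6.82 (log2 -0.79, adjusted p = 0.00017). ZYX, the focal adhesion protein zyxin, was lower by both probes (-0.57 for ILMN_2371169, adjusted p = 0.00552). This call was lost with median scaling (-0.40) and with SH-SY5Y fitted alone. In SH-EP2 no probe of this list was called by limma, and 8 had an unadjusted p under 0.05, of which 3 were higher and 5 lower. The effect on EGR1 differed between the lines (log2 1.68 for SH-EP2 minus SH-SY5Y, adjusted p = 9.35e-06).

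Proteins that assemble and disassemble filaments changed in few cases. In the list of monomer-binding, severing and capping proteins (35 probes), 2 probes were called lower in SH-SY5Y (5.71%), and in SH-EP2 1 was called higher and 3 lower (11.4%), beside 5.63% and 7.79% of probes detected on all arrays in these lines. TMSB4X, the main buffer of actin monomers, was lower in SH-SY5Y by 0.51 on the log2 scale (adjusted p = 1.71e-05). CAPZB, a capping protein subunit, had -0.52 in SH-SY5Y (adjusted p = 0.0382). Its call was lost whichever of the 8 arrays was left out, with values between -0.59 and -0.45. That call was also lost with median scaling, with the replicate block and with SH-SY5Y fitted alone. By the brightest probe of each gene, 1 of the 21 genes was called lower in SH-SY5Y and 20 were not. TMSB4X and CAPZB were thus not both called by their brightest probe. In SH-EP2 the severing protein DSTN was lower (-0.53, adjusted p = 0.000455), CAP2 gave -0.42 and the pointed-end cap TMOD1 was higher (0.60, adjusted p = 0.00439).

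The call of CAP2 was lost without either SH-EP2 control replicate or TRPM7 shRNA replicate 1 (-0.52 to -0.32), and also with median scaling. That of TMOD1 was lost without control replicate 2 or TRPM7 shRNA replicate 1 (0.55 to 0.64) and without background correction (0.28).

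Among nucleators (35 probes), 2 probes were called higher and 1 lower in SH-SY5Y, and 2 higher and 3 lower in SH-EP2, or 8.57% and 14.3%, read against the same shares. The Arp2/3 subunit ARPC3 was higher in both lines, by 0.46 in SH-SY5Y (adjusted p = 0.00284) and 0.53 in SH-EP2 (adjusted p = 0.000622). Without SH-SY5Y TRPM7 shRNA replicate 1 the former was 0.33 and lost its call. ARPC2 was lower in SH-SY5Y (-0.40, adjusted p = 0.00139), a call lost with median scaling (-0.31), and WASF3, an activator of Arp2/3, was higher there (0.83, adjusted p = 0.000455).

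The formin DIAPH3 was lower in SH-EP2 by both probes (-0.90 each, adjusted p = 0.00537 and 0.0463), and the formin FMNL2 was higher (0.79, adjusted p = 0.00921). The calls of FMNL2 and of both DIAPH3 probes were lost when single SH-EP2 arrays were left out, control replicate 1 and TRPM7 shRNA replicate 1 in each case, with values between 0.68 and 0.89 for FMNL2 and between -1.12 and -0.68 for DIAPH3. Without background correction FMNL2 gave 0.34 and the DIAPH3 probes -0.38 and -0.35, still called. The DIAPH3 call with the higher p (ILMN_1695226) was also lost with median scaling and with the replicate block.

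Among cross-linkers and other filament-binding proteins (23 probes), none was called in SH-SY5Y by limma, where 5 had an unadjusted p under 0.05. Of its probes, 13% were called in SH-EP2, where 7.79% of probes detected on all arrays were. In SH-EP2 the bundling protein FSCN1 was higher (0.46, adjusted p = 0.000346), as was MARCKSL1 (0.57, adjusted p = 0.00163), and LIMA1 was lower (-0.50, adjusted p = 0.0136). Without SH-EP2 control replicate 2 or TRPM7 shRNA replicate 2 the call of MARCKSL1 was lost (0.41 to 0.73). That of LIMA1 was lost without any 1 of the SH-EP2 arrays (-0.57 to -0.43), and also with median scaling.

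**Figure D4:**
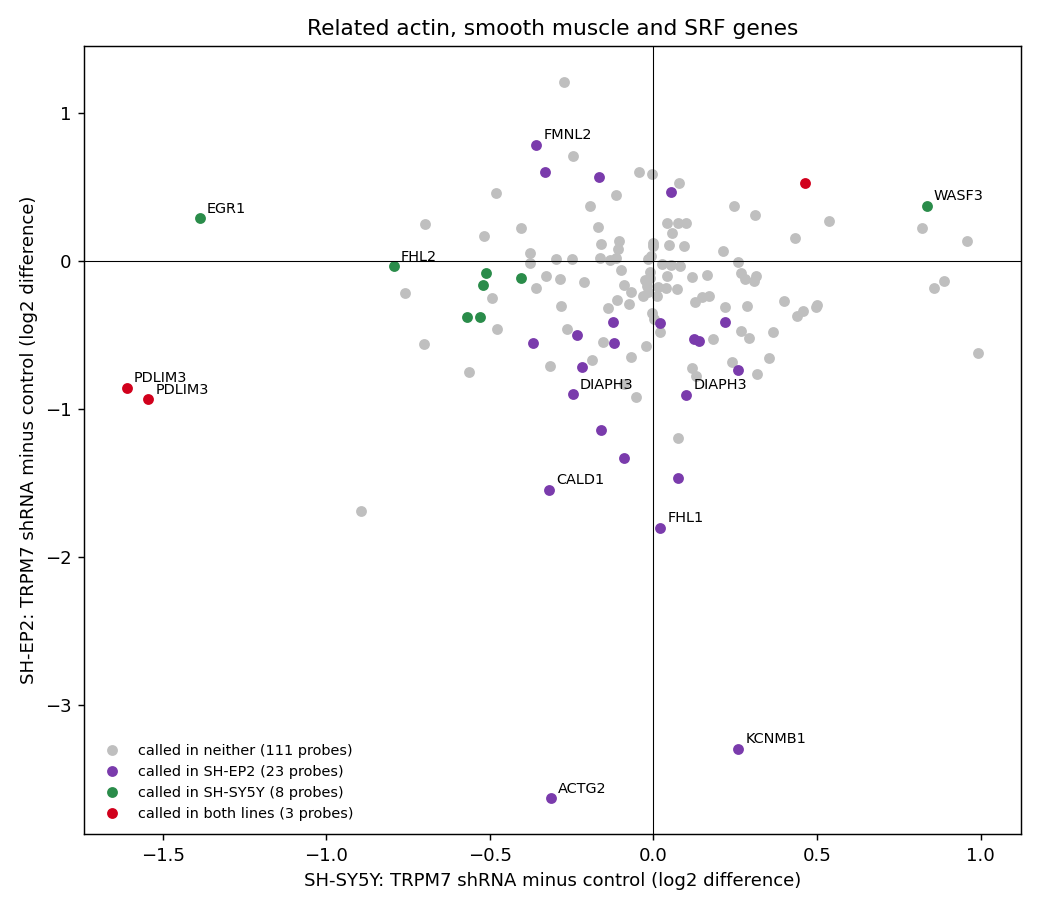
Log2 difference between TRPM7 shRNA and control cells in SH-SY5Y (x axis) and SH-EP2 (y axis) for the 145 related probes detected on at least 1 array, coloured by the line in which limma called them. The 23 probes called in SH-EP2 alone lie mostly below 0, with ACTG2 and KCNMB1 lowest, while PDLIM3 is low in both lines and EGR1 in SH-SY5Y.

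The pattern of ACTA2 over the 8 arrays was compared with 20567 probes of other genes by the root mean square difference of centred log2 values, whose median was 2.08. The nearest were PGCP (0.33), KRT18P28 (0.38), RCAN1 (0.38), TNFRSF19 (0.39) and RNASE4 (0.39). Of these, TNFRSF19 (ILMN_1704154) was detected on all arrays. It was at 10.94 and 11.12 in SH-EP2 control cells against 9.86 and 9.83, and at 6.95 and 6.87 in SH-SY5Y control cells against 7.59 and 7.64. PGCP, KRT18P28 and RNASE4 were detected on no SH-SY5Y array, and RCAN1 there with TRPM7 shRNA alone, so their likeness rests on the SH-EP2 arrays and on the difference between the lines.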

How the data were processed

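Total RNA of 8 samples, 2 per cell line and shRNA, was labelled and hybridised to HumanHT-12 v4 bead arrays. The authors extracted signal intensities and detection p-values in GenomeStudio 2011.1 and deposited the intensities without normalization. The deposited intensities are on a linear scale, with medians of 104.7 to 119.9 per array. The study's methods name Robust-Multi-Array normalization. The genome build of the probes is not given in the sources used here.

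Here the RMA background model was applied to the intensities, followed by quantile normalization over the 8 arrays and log2, with no filter on dim probes. Groups were set from the labelled cell line and shRNA and entered 1 linear model with 4 group means (limma 3.58.1, R 4.3.3), whose empirical Bayes variances followed intensity. Two-sided p-values were adjusted over the 47322 probes by Benjamini-Hochberg with a threshold of 0.05, and the difference between the lines was an interaction contrast. Bright signals close to the top of the scale and signals close to the background (98.3 to 111.1, SD 6.71 to 8.05) carry less information on fold, and precision is limited by the small number of arrays. For a probe undetected throughout a group, that group was given a floor on each array, namely the dimmest detected signal there unless the probe itself was brighter, and the fold over the mean floor is written as at least that size.

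The members and the lists were chosen with earlier results of these data known. Named are every member probe, the relatives, the SRF regulators, up to 3 called probes of largest change per further list and line (groups apart, brighter group detected), 4 defining smooth muscle genes and the 5 genes nearest to ACTA2. Whether replicate numbers pair the arrays was checked by the correlation of the differences between replicates over 14577 probes, which was -0.111 in SH-SY5Y and -0.00447 in SH-EP2, so they were not taken as pairs. The procedure was tested on simulated arrays. Other settings tried were background correction by neqc (offset 16), by normexp (offset 50) or not at all, median scaling, probes detected on at least 2 arrays, no intensity trend, a replicate block, each line alone, and leaving out each array, which takes the spread of the remaining groups for a lone array. Motifs were searched with Python 3.11.15.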

Additional observations from a re-analysis of the deposited data

Results flagged for a closer look

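Among the related probes named in the report, the effect of TRPM7 shRNA differed between the lines for 12, and 2 member probes detected on all arrays moved in opposite directions. Values are the log2 effect in SH-EP2 minus that in SH-SY5Y. ACTA2 (-2.73) and TAGLN (ILMN_1778668, -1.97) were lower on every TRPM7 shRNA array of SH-EP2 and higher on every one of SH-SY5Y, and no test of that difference is given because the genes were chosen with it known, so it counts as not tested. By the interaction term of limma, ACTG2 (-3.32, adjusted p = 0.000108), KCNMB1 (-3.55, adjusted p = 0.00428), FHL1 (-1.82, adjusted p = 3.35e-07), CALD1 (-1.22, adjusted p = 5.86e-05) and DSTN (-0.65, adjusted p = 0.00295) were lower in SH-EP2 than the SH-SY5Y effect would give. KCNMB1 was detected in SH-EP2 control cells alone, so its value is a fitted one with the remaining groups at background, and it was -0.70 without background correction.

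In the other direction were EGR1 (1.68, adjusted p = 9.35e-06), FMNL2 (1.15, adjusted p = 0.0129), TMOD1 (0.93, adjusted p = 0.00325), FHL2 (0.76, adjusted p = 0.0118), MARCKSL1 (0.74, adjusted p = 0.00667), TMSB4X (0.43, adjusted p = 0.00619) and FSCN1 (0.41, adjusted p = 0.0386). The interaction call was lost for FSCN1 in 7 of the 8 fits without 1 array (0.31 to 0.50), the exception being SH-SY5Y TRPM7 shRNA replicate 2. It was lost for FHL2 without SH-EP2 control replicate 1 or 2 or TRPM7 shRNA replicate 1 (0.64 to 0.87), for FMNL2 without SH-EP2 control replicate 1, either SH-EP2 TRPM7 shRNA replicate or SH-SY5Y TRPM7 shRNA replicate 1 (1.03 to 1.26), for MARCKSL1 without SH-EP2 control replicate 2 or TRPM7 shRNA replicate 2 (0.57 to 0.90), and for TMSB4X without SH-EP2 control replicate 1 or TRPM7 shRNA replicate 2 (0.37 to 0.51). With median scaling it was lost for FHL2 (0.60), TMSB4X (0.39), FMNL2 (0.98), MARCKSL1 (0.64) and FSCN1 (0.35), with neqc for TMSB4X and FSCN1, and without background correction for FHL2 (0.41). The FSCN1 interaction call was also lost with the replicate block and with only probes detected on at least 2 arrays. Without an intensity trend every one of these interaction calls except that of KCNMB1 was lost.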

How the results depend on the processing

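All 22 member probes stayed higher in SH-EP2 control cells and passed the threshold in the comparison of the lines under every alternative, except the brighter ACTG1 probe in 3 of them. The variance model moved the knockdown counts most. Without an intensity trend 64 probes were called in SH-SY5Y, 100 in SH-EP2 and 23 for the difference between the lines (999, 1429 and 662 with it), and 1 and 4 related probes (11 and 26 with it). With SH-EP2 fitted alone 2587 probes and 44 related probes were called. The difference between the lines gave 1153 calls with normexp and 1248 without background correction, and median scaling left 7 related probes in SH-SY5Y. With each array left out, calls ranged from 622 to 958 in SH-SY5Y (lowest without TRPM7 shRNA replicate 1, 634 without control replicate 2), 675 to 1596 in SH-EP2 (lowest without control replicate 2; 781, 693 and 701 without control replicate 1 and TRPM7 shRNA replicates 1 and 2) and 399 to 650 for the difference (lowest without SH-EP2 TRPM7 shRNA replicate 1; 416 and 417 without SH-EP2 control replicate 2 and TRPM7 shRNA replicate 2). Related probes ranged from 15 to 29 in SH-EP2 and from 8 to 12 in SH-SY5Y. With the replicate block 801, 1136 and 500 probes were called in these comparisons and 12290 between the lines, 10 and 23 related probes, and all 22 members between the lines, so it moved no count by more than 1.5 times. Crossing the SH-SY5Y replicate numbers, an alternative chosen after seeing the data, gave 1420 calls and 14 related probes. Signal over background limits the dim TAGLN, TPM1 and TPM2 probes, whose fitted differences shrank without background correction, as did those of KCNMB1 in SH-EP2 (to -0.65) and EGR1 in SH-SY5Y (to -0.58).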
